A study of Mus musculus with 2 samples.

Results

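The genes described here encode the mouse receptors for serotonin, dopamine, noradrenaline and acetylcholine. They are the protein-coding genes of chromosomes 1 to 19 in the GENCODE M21 annotation whose symbols belong to the families Htr1 to Htr7, Drd1 to Drd5, Adra1, Adra2, Adrb, Chrm1 to Chrm5 and Chrn, and number 48 of 20807. They comprise 13 serotonin receptor genes, 5 dopamine receptor genes, 9 adrenoceptor genes, 5 muscarinic receptor genes, 5 nicotinic subunit genes of the muscle type and 11 of the neuronal type. Htr2c lies on the X chromosome and is not analysed here. Accessible chromatin had been mapped by DNase-seq in hippocampal tissue of male B6CASTF1/J mice aged 10 days. DNase I is an enzyme that preferentially cuts DNA free of nucleosomes, so frequent cuts mark accessible sites. The animals are first-generation hybrids of the strains C57BL/6J and CAST/EiJ. There was 1 group of 2 libraries, which the labels number as biological replicates, each described as made from 3 males. No other condition is labelled, so values were compared between the libraries, between receptor families and with all 20807 genes.

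Monoamines and acetylcholine reach the hippocampus along fibres from the brainstem and the basal forebrain, and act there on receptors of its pyramidal cells, granule cells, interneurons and glia. Most of these receptors act through G proteins, Gs raising and Gi/o lowering cyclic AMP and Gq/11 activating phospholipase C. The serotonin receptor of type 3 and the nicotinic acetylcholine receptors are instead ion channels built of several subunits, which open when the transmitter binds. An accessible promoter is usual at a gene that is transcribed, but accessibility is not a measure of transcription.

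For each library the authors deposited a shorter and a longer list of accessible regions, each region with a signal height, and a list of footprints, short stretches inside accessible DNA that DNase I cuts less than their surroundings. A promoter region here is a region of the shorter list within 1000 bp of any annotated start of a gene, and a gene with such a region is called open. A distal region lies over 1000 bp from every annotated start, and the locus of a gene is its body plus 10 kb on each side. The shorter lists held 54546 regions in replicate 1 and 74278 in replicate 2, so replicate 2 lists more regions in total, though not at every gene. The sources used here give no read depth, and no counting error can be attached to a single height. Markers of excitatory hippocampal neurons were open in both libraries for 7 of 8 genes, with Prox1 at 1.83 and 1.86 and Neurod2 at 2.11 and 2.43 in replicates 1 and 2. None of 6 microglial and none of 5 hepatocyte markers was open in both, though 3 and 1 of them were in replicate 2. Open in both were 1 of 8 interneuron, 2 of 6 astrocyte and 4 of 6 oligodendrocyte lineage markers. In such bulk tissue, a region open in few cells and a region that is weakly open in many cells cannot be told apart. Positions count from 1 on the mouse assembly mm10 (GRCm38).

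A minority of the receptor genes had a reproducibly open promoter, and those promoters were low. In replicate 1, 23 of the 48 genes (47.9%) were open, against 60.8% of all genes. In replicate 2 the count was 31 (64.6%), against 65.3% of all genes. All 23 genes of replicate 1 were also open in replicate 2, so 23 (47.9%) were open in both, against 60.5% of all genes. A further 8 were open in replicate 2 alone, none in replicate 1 alone, and 17 in neither. Among all genes, 1003 were open in replicate 2 alone and 71 in replicate 1 alone. With the longer lists, 29 receptor genes (60.4%) were open in both libraries, against 65.7% of all genes.

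Among the genes open in both libraries, the highest promoter region of a receptor gene had a median height of 1.23 in replicate 1 and of 1.82 in replicate 2. The mean of both medians was 1.53 ± 0.415 (SD, n = 2). The medians over all 12586 genes open in both were 2.67 and 3.44. The range over receptor genes was 0.396 to 2.66 in replicate 1 and 0.514 to 3.58 in replicate 2. None exceeded 50% of all open genes in both libraries, and 8 lay in the lowest 10% of them in both. Of the 23 receptor genes, 21 were higher in replicate 2, against a background of 87.6% of all genes open in both, and the median ratio of replicate 2 to replicate 1 was 1.48 for the receptors and 1.25 for all genes. The receptor promoters kept a similar order in both libraries, with a Spearman correlation of 0.875 and a Pearson correlation of log2 heights of 0.924 across the 23 genes. The corresponding values across all 12586 genes were 0.957 and 0.956. These are correlations across genes of the same pair of libraries, not across samples.

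**Figure D1:**
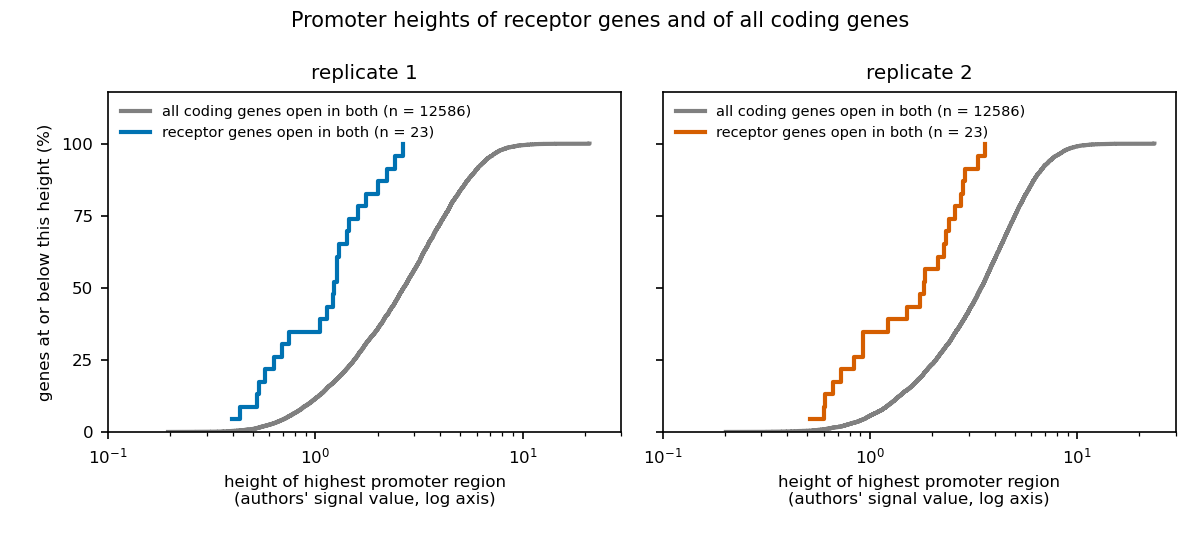
Cumulative share of genes (vertical axis, percent) at or below a given height of their highest promoter region (horizontal axis, the authors' signal value, log axis), for the 23 receptor genes and all 12586 genes open in both libraries, replicate 1 on the left and replicate 2 on the right. The receptor curves lie to the left of the grey curves, with medians of 1.23 and 1.82 against 2.67 and 3.44.

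The families differed in how many members were open. Of the 30 G protein-coupled receptor genes, 18 were open in both libraries (60%) and 24 in replicate 2. Of the 18 channel subunit genes, 5 were open in both (27.8%) and 7 in replicate 2. Muscarinic receptors were open in both for 4 of 5 genes, adrenoceptors for 6 of 9, serotonin receptors for 8 of 13, dopamine receptors for 1 of 5, neuronal nicotinic subunits for 3 of 11 and muscle-type subunits for 1 of 5. By signalling class, 5 of 8 Gs-coupled, 8 of 14 Gi/o-coupled and 5 of 8 Gq/11-coupled receptors were open in both. By the count in both libraries, the classes of G protein thus lay between 57.1% and 62.5%, close to the 60.5% of all genes. In replicate 2 they lay above the 65.3% of all genes, at 75% (Gs), 78.6% (Gi/o) and 87.5% (Gq/11). The channel subunits lay below the share of all genes by either count, with 38.9% in replicate 2.

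**Figure D2:**
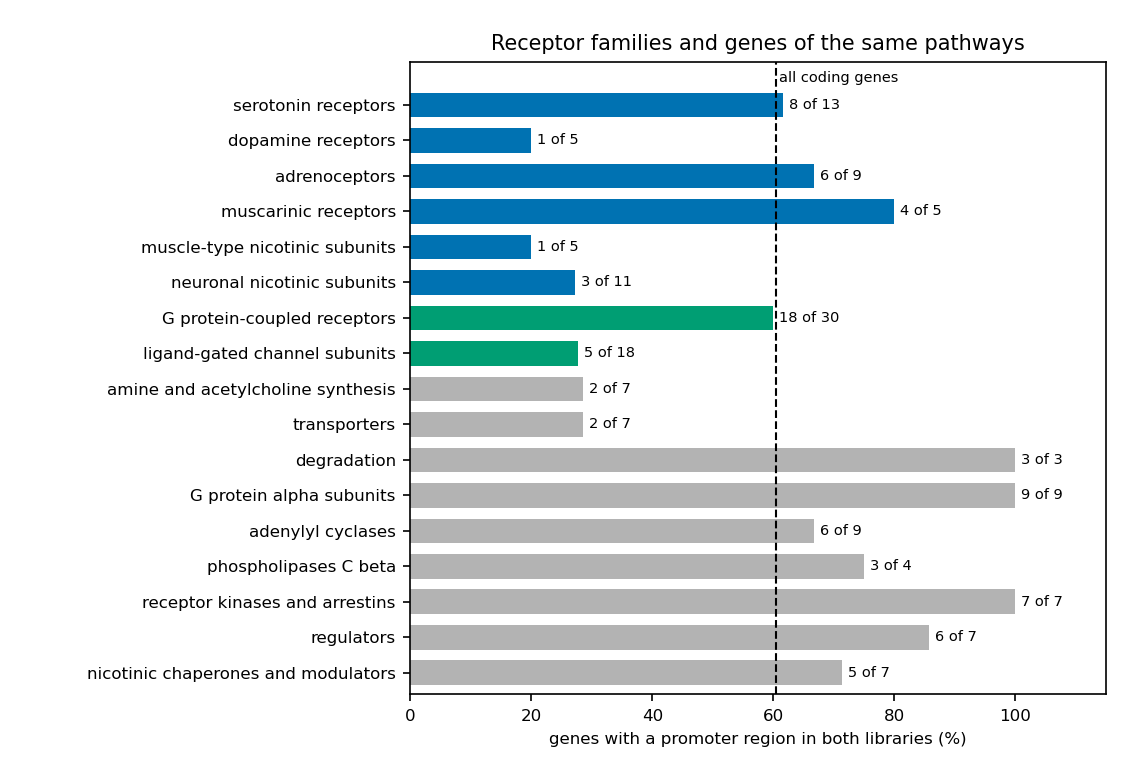
Percentage of genes with a promoter region in both libraries (horizontal axis) for the 6 receptor families, the 2 receptor classes and the other genes of the same pathways, with the number of genes beside each bar; the dashed line is the share of all genes, 60.5%. Neuronal nicotinic subunits (3 of 11) lie below the line and muscarinic receptors (4 of 5) above it.

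All 9 adrenoceptor genes were open in replicate 2, and Adra2b and Adra2a held the highest receptor promoters of that library. Adra2b, a Gi/o-coupled α2 adrenoceptor, had a height of 2.43 in replicate 1 and 3.58 in replicate 2, above 45.1% and 55.8% of open genes. Adra2a, the main presynaptic autoreceptor for noradrenaline, had 2.21 and 3.34. Adra2a and Adra2b exceeded every other adrenoceptor in both libraries. The Gs-coupled β1 receptor gene Adrb1 had 1.42 and 2.14. The Gq/11-coupled α1 receptor genes Adra1b and Adra1d had 1.27 and 2.28, and 1.14 and 1.85. The ranges of Adrb1, Adra1b and Adra1d overlap, and their order differs between the libraries. Open in replicate 2 alone were 3 adrenoceptor genes, Adra2c at 1.37, Adra1a at 0.874 and Adrb3, the β3 receptor best known from fat tissue, at 0.595. In the longer list of replicate 1, Adra2c (0.874) and Adrb3 (0.471) were present and Adra1a was not.

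The highest region of Adra2b, the highest of any receptor gene by mean rank, is shown because it lies upstream of the start and outside any exon. It covers chr2:127362521-127362720 in replicate 1 and ends 20 bp earlier in replicate 2, and its nearest edge is 488 and 508 bp upstream of the nearest annotated start. The 180 bp common to both libraries are printed on the forward strand, which is also the strand of the gene, with the 49 bases (27.2%) covered by footprints of both libraries in capitals.
Adra2b: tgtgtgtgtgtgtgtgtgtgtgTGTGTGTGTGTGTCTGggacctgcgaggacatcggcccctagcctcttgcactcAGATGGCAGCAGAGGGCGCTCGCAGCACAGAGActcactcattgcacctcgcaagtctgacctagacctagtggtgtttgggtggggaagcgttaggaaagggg
The capitals fall in 2 blocks, in a repeat of T and G and in a stretch further along. The latter, with the base before it, holds the motif CAGATGG, an E-box bound by proneural factors such as NEUROD1. Footprints covered 6 of its bases in each library. The same block holds a near match to the CTCF motif described below, at chr2:127362602-127362613, with all 12 bases covered in both libraries. Which factor, if any, was bound was not tested. The E-box was found in 1 of 34 shared receptor promoter regions and in 3.08% of all 18811, searched on both strands in the central 200 bp.

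Muscarinic receptors, which bind acetylcholine and couple to G proteins, were open in both libraries in 4 of 5 genes. Chrm4, the Gi/o-coupled M4 receptor, had 1.75 and 2.80, and Chrm1, the Gq/11-coupled M1 receptor abundant in hippocampal pyramidal cells, had 2.02 and 2.57. Chrm3, the M3 receptor, had 1.22 in both libraries. Chrm2, the Gi/o-coupled M2 receptor, had 0.434 and 0.606, the lowest of the family. Chrm1 and Chrm4 thus lay above Chrm3, and Chrm3 above Chrm2, in each library. Chrm5 was closed in both libraries and in both longer lists. The Chrm4 region, chr2:91927957-91928100 in replicate 1, lies in the coding exon 708 bp downstream of the start, and the Chrm1 region, chr19:8664181-8664396, in the 5′ untranslated part 176 bp downstream of the nearest start.

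Among the serotonin receptors 8 of 13 genes were open in both libraries, with low heights. Htr1a, the Gi/o-coupled receptor that inhibits pyramidal cells and raphe neurons, had heights of 1.30 and 1.74, and Htr3a, the obligatory subunit of the serotonin-gated channel, had 1.23 and 1.82. These were the highest of the family and changed places between the libraries. The other 6 reached at most 0.929 in either library. They were the Gs-coupled Htr4 (0.572 and 0.929) and Htr7 (0.396 and 0.601), the Gi/o-coupled Htr5b (0.748 and 0.836), Htr5a (0.534 and 0.727) and Htr1b (0.522 and 0.661), and the Gq/11-coupled Htr2b (0.635 and 0.514). Among the 23 receptor genes open in both libraries, Htr7 was the lowest in replicate 1 and Htr2b in replicate 2. Htr2b was, with Chrm3, an exception to the higher values of replicate 2. Htr2a, the Gq/11-coupled receptor on which classical hallucinogens act, was open in replicate 2 alone, at 0.508, the lowest receptor promoter of that library, and absent from the longer list of replicate 1. Htr1d, Htr1f, Htr3b and Htr6 were closed in both libraries. Of these, Htr1f was in both longer lists (0.302 and 0.492) and Htr1d in that of replicate 2 (0.366).

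Drd1, the Gs-coupled D1 receptor and the only dopamine receptor gene open in both libraries, had heights of 1.61 and 2.40. The region covered its start, chr13:54055621-54055860 in replicate 1. The Gi/o-coupled genes open in replicate 2 alone were Drd2 at 0.858 and Drd4 at 0.579. Of these, Drd2 was in the longer list of replicate 1 at 0.459 and Drd4 was not. Drd3 and Drd5 were closed in both libraries, and Drd3 appeared only in the longer list of replicate 1, at 0.352. Drd1 thus lay above every serotonin receptor gene in each library, and its 4 relatives lay below it or had no region.

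Of the 11 neuronal nicotinic subunit genes 3 were open in both libraries. Chrna7, which forms channels of a single subunit type, had 1.27 and 2.87. Chrnb2 had 1.06 and 2.32 and Chrna4 0.691 and 0.929. Together α4 and β2 make up the most abundant nicotinic receptor of the brain. Chrna7 and Chrnb2 showed the largest ratios between the libraries of the 23 open receptor genes. Chrna5 was open in replicate 2 alone (0.688) and was in the longer list of replicate 1 (0.333). Chrna2, Chrna3, Chrna6, Chrna9, Chrna10, Chrnb3 and Chrnb4 were closed in both, and of these only Chrna3 was in a longer list, that of replicate 2, at 0.492. Among the muscle-type subunits, which form the receptor of the neuromuscular junction, Chrnb1 was open in both at 2.66 and 2.74. Chrnb1 was the highest of all receptor genes in replicate 1 and 5th in replicate 2. Chrne was open in replicate 2 alone, at 0.765. That region, chr11:70615401-70615560, was the only receptor promoter region also within 1000 bp of the start of another protein-coding gene, 4930544D05Rik. Starts of noncoding genes lay within 1000 bp of promoter regions of Chrm1, Chrm2, Htr1b and Adrb3, among others. The highest Chrm2 region of each library overlapped an exon of the noncoding gene 9330158H04Rik and no part of Chrm2. Chrna1, Chrnd and Chrng were closed in both libraries and in both longer lists.

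**Figure D3:**
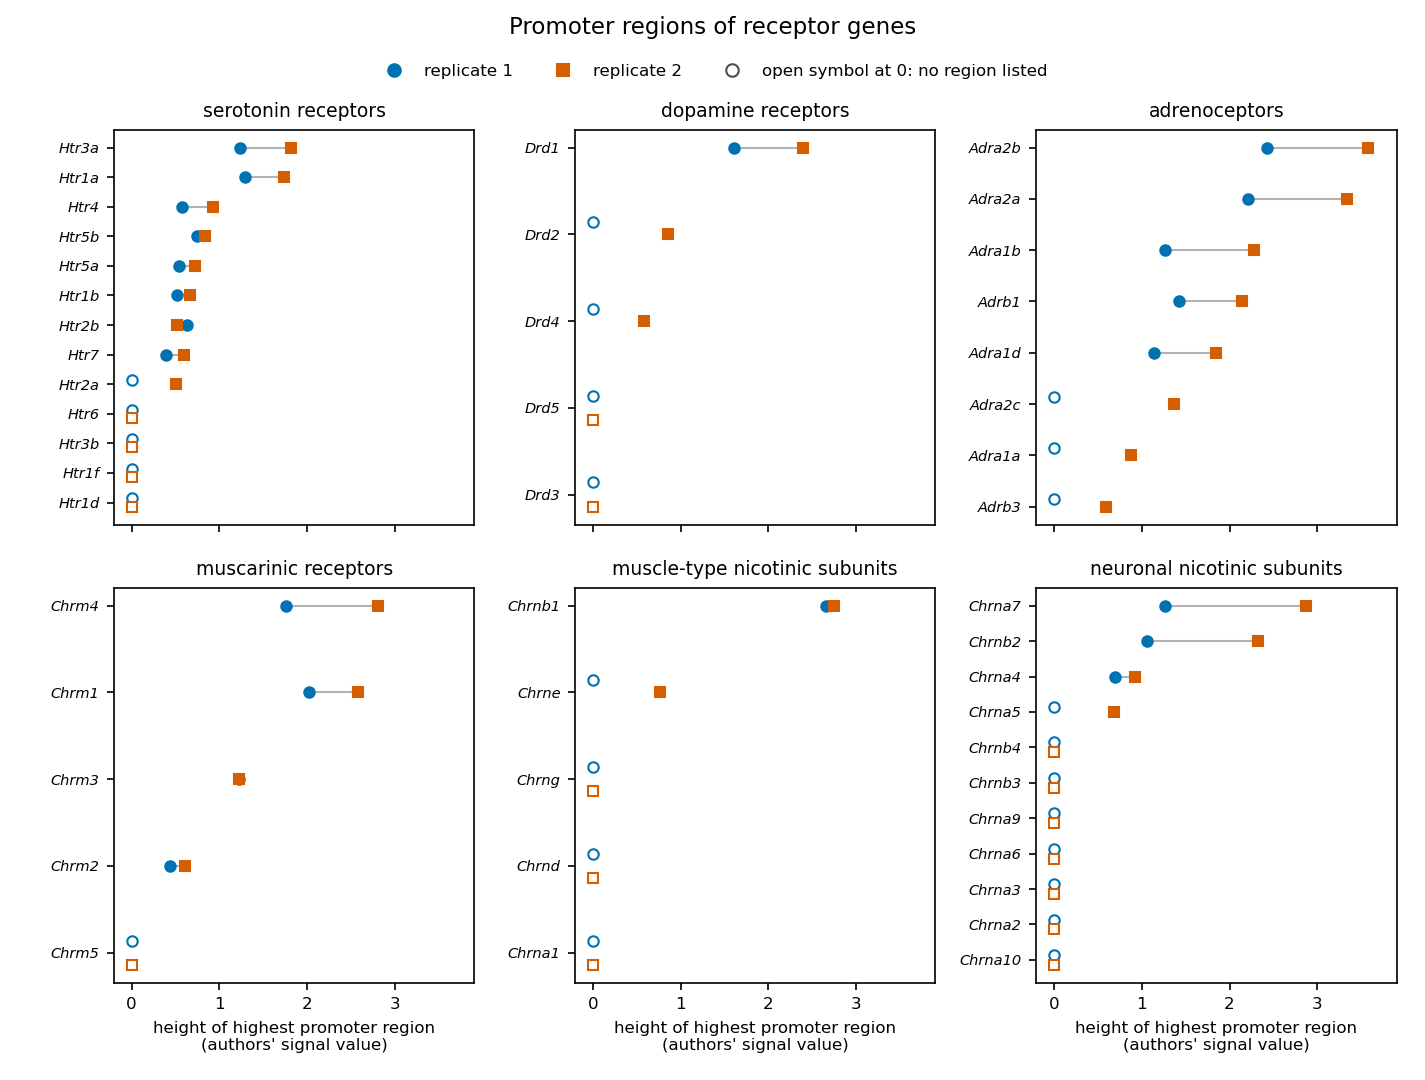
Height of the highest promoter region (horizontal axis, the authors' signal value) of each receptor gene plotted in replicate 1 (circles) and replicate 2 (squares), by family; open symbols at 0 mark a library whose shorter list has no region there. Adra2b reaches 2.43 and 3.58, and 17 genes have open symbols in both libraries.

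The 8 genes open in replicate 2 alone had heights there of 0.508 to 1.37, with a median of 0.727, below the median of the genes open in both. In replicate 1, 5 of the 8 were present in the longer list. The authors' false discovery rate of the cut rate, listed per base up to 0.05, gives another view of the same windows. Its lowest value did not fully separate open from closed genes. In replicate 1 Adrb3 reached 0.000602 and was closed, and Htr7 reached 0.00062 and was open. Within 1000 bp of the starts of Adra2c, 248 bases were listed in replicate 1 with a lowest rate of 0.000987, and 600 bases in replicate 2 with a lowest rate of 1.07e-10. Adra1a and Drd4 had no listed base in replicate 1 and 825 and 480 listed bases in replicate 2. Of the 17 genes closed in both libraries, 12 had no listed base in either library. These were Chrna1, Chrna2, Chrna6, Chrna9, Chrna10, Chrnb3, Chrnb4, Chrnd, Chrng, Drd5, Htr3b and Htr6. Among the other 5, Htr1f had 46 listed bases in replicate 1 and 281 in replicate 2, and Chrna3 had none and 296.

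The open receptor promoters were narrow at some genes and broken into several regions at others. In 21 of the 23 genes the highest regions of both libraries overlapped, and they did not at Htr1b and Chrna4. The highest region covered an annotated start in 11 genes in replicate 1 and in 10 in replicate 2, and lay beside it in the others. Htr1b had 6 regions in replicate 1 and 4 in replicate 2, none higher than 0.522 and 0.661. Adrb1 had 4 and 5 regions, those of replicate 2 partly nested in each other and ending at the same base. At least 1 footprint was listed in 85.7% of the receptor promoter regions in each library, 30 of 35 and 48 of 56, against 83.3% and 84.1% of all promoter regions of coding genes. Of the receptor promoter regions of replicate 1, 34 of 35 overlapped a region of replicate 2 (97.1%, against 90.4% of all), while 34 of the 56 of replicate 2 overlapped a region of replicate 1 (60.7%, against 73.5%).

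The starts of receptor genes were poorer in CpG dinucleotides than those of coding genes as a whole. A start was called CpG-rich where the sequence within 500 bp of the outermost start had a ratio of observed to expected CpG of at least 0.6 and a G+C content of at least 55%. By this rule 13 of 48 receptor genes (27.1%) were CpG-rich, against 39.6% of all genes. Among CpG-rich genes 8 of 13 receptor genes (61.5%) and 91.5% of all genes were open in both libraries. Among the others the shares were 15 of 35 (42.9%) and 40.2%. The receptor share thus lay below that of all genes at CpG-rich starts and close to it at the others. Heights were lower than those of all genes in both classes, with medians of 1.35 and 1.99 against 3.09 and 3.93 at CpG-rich starts and 1.06 and 1.74 against 2.14 and 2.75 at the others. The CpG-rich genes without a promoter region in either library were Chrna3, Drd5, Htr1f and Htr6, and Drd2 was open in replicate 2 alone. The CpG-rich class included Htr7, with a CpG ratio of 0.925 and heights of 0.396 and 0.601. It also included Adra2b, with a ratio of 0.745 and heights of 2.43 and 3.58. CpG content and height thus did not run in parallel in these 2 genes.

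**Figure D4:**
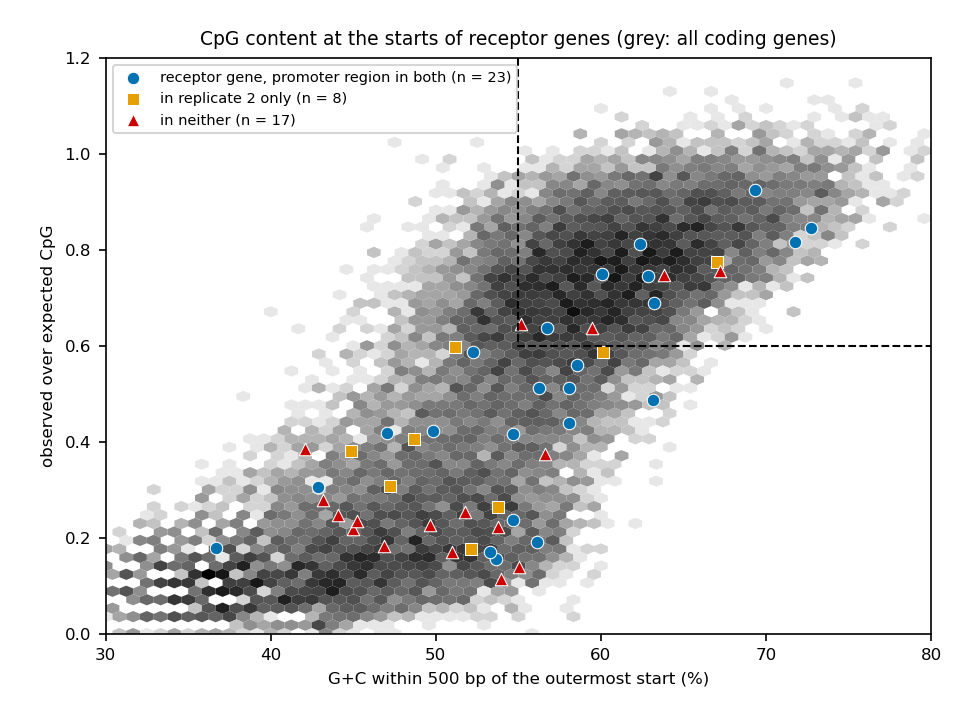
Observed over expected CpG (vertical axis) against G+C content (horizontal axis, percent) up to 500 bp either side of each receptor gene's outermost start, over all coding genes in grey (darker for more genes); dashed lines bound the CpG-rich class. Of the 13 receptor genes in that class, 8 are open in both libraries and 4 in neither.

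Binding motifs were searched on both strands in the 200 bp around the midpoint of each region shared by both libraries. REST, the repressor that keeps neuronal genes silent in other cells and in progenitors, has a 16-base consensus. A match lay in 2 of 34 shared receptor promoter regions, those of Chrnb2 and Htr1a, against 0.197% of all 18811. Another match lay in the region of Drd2 listed in replicate 2 alone. These 3 sites are shown with 7 bases on each side, on the strand of the motif, because they occur at starts of genes of 3 different families. Capitals mark the match.
Chrnb2: cgcggctTCAGCACCACGGACAGcgctccg
Htr1a: attgggtTCAGCACCCGGGACAGctctgtg
Drd2: acgggatTCAGCACCAAGGACAGcagaaag
The Chrnb2 match, chr3:89764458-89764473 on the minus strand, lies in an annotated untranslated part 167 bp downstream of the outermost start. Footprints covered 15 of its 16 bases in replicate 1 and 16 in replicate 2. The Drd2 match, chr9:49341200-49341215 on the minus strand, lies in an intron 580 bp downstream of the start, with 14 and 16 bases covered. The Htr1a match, chr13:105442789-105442804 on the minus strand, lies 843 bp upstream of the start, and no base of it was covered in either library. Of the 40 such matches in all shared promoter regions, 9 (22.5%) were fully covered in both libraries. The letters are those of the reference strain C57BL/6J, and the CAST/EiJ allele of the hybrid was not read.

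The whole Htr1a region is shown because its match and its footprints lie apart. It spans chr13:105442701-105442860 in both libraries and lies outside any annotated gene, and 18 of its 160 bases (11.2%), in capitals, were covered by footprints of both libraries. It is printed on the forward strand, which is the strand of the gene.
Htr1a: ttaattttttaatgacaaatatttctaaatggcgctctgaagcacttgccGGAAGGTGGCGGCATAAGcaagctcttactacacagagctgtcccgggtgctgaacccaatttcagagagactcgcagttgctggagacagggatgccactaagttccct
The block in capitals lies before the match, which is itself in lower case here.

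GC boxes, written GGGGCGG and bound by SP and KLF factors, were found in 4 of 34 shared receptor promoter regions (Adra2a, Chrna4, Chrnb1 and Htr4), against 31.5% of all 18811. No match to the cyclic AMP response element TGACGTCA, to the EGR motif GCGTGGGCG or to the consensus of NFI, RFX or MEF2 was found in the 34. These shares among all shared promoter regions were between 0.0425% and 2.61%. A motif match describes letters of the sequence and does not show that a factor was bound.

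Distal regions were present around about as large a share of receptor genes as of all genes. At least 1 distal region shared by both libraries lay in the locus of 25 of 48 receptor genes (52.1%), against 45.5% of all genes. The median was 1 region per receptor gene and 0 over all genes, the means were 0.792 and 0.956, and the largest count was 3, at Chrnb4 and Chrm3. Below 30 kb, 5 of 15 receptor loci (33.3%) had such a region, against 27.3% of all, and from 30 to 100 kb 15 of 25 (60%), against 48.1%. From 100 kb upwards the shares were 5 of 8 (62.5%) and 80.3%, with means of 1.00 and 2.82 regions per gene. The 38 pairs of gene and region stood for 37 different regions, since 1 region served both Chrna3 and Chrnb4. Of the 38, 22 lay in the body of the receptor gene and 16 in its flanks, and 7 lay inside another coding gene. The shared distal regions had median heights of 1.13 and 1.58, against 1.05 and 1.28 for all 26224 shared distal regions. Unlike the promoter regions, they were thus not lower than those of all genes. At least 1 footprint was listed in 93.6% and 93.2% of all receptor distal regions, against 91.5% and 88.9% of all distal regions.

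Many of these distal regions lay at genes whose own promoter was closed. Of the 17 genes closed in both libraries, 12 (70.6%) had at least 1 shared distal region, against 29.5% of all 7147 such genes. Of the 8 genes open in replicate 2 alone 5 had one (62.5%, against 56.2% of all), and of the 23 open in both 8 did (34.8%, against 53.7%). Among all genes the share was thus higher where the promoter was open, and among receptor genes it was higher where the promoter was closed. The difference was not tested, and locus length was not matched in these shares. The highest was in an intron of Chrna1, the α1 subunit of the muscle receptor, 7.67 kb downstream of the start, with heights of 2.70 and 3.59. Chrna1 also had a region 13.2 kb downstream (1.13 and 1.36). Chrna9, a subunit best known from cochlear hair cells, had a region 3.24 kb downstream of a start (2.02 and 3.08) and another at 1.60 and 2.14. Chrnd, the δ subunit, had regions 5.59 and 3.38 kb upstream (1.84 and 3.12, and 1.35 and 2.68), both inside the neighbouring gene Prss56. Htr6, a Gs-coupled receptor, had a region in Nbl1 (2.30 and 2.25) and another in Tmco4 (1.72 and 1.81). Drd3, the Gi/o-coupled D3 receptor, had intronic regions 40.0 kb (1.94 and 3.14) and 52.7 kb (0.629 and 0.885) downstream. Chrnb3 had regions 6.60 and 6.29 kb upstream, the latter with 0.754 and 0.803. The remaining closed genes with 1 shared distal region were Htr3b (1.32 and 2.04), Htr1d (0.899 and 1.27), Htr1f (1.57 and 1.25) and Chrna2 (0.717 and 1.30). The intronic region of Chrna1 was slightly higher than every receptor promoter in each library. The nearest were Chrnb1 at 2.66 in replicate 1 and Adra2b at 3.58 in replicate 2.

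Chrna5, Chrna3 and Chrnb4 lie side by side on chromosome 9 and encode subunits that assemble together in autonomic ganglia and the habenula. The loci of Chrna3 and Chrnb4 share a distal region, and that of Chrna5 had none in either library. The region at chr9:55024021-55024200, over coding sequence of Chrna3 and 2.42 kb downstream of its start, had 2.01 in replicate 1 and 3.25 in replicate 2. None of the 3 genes had a promoter region in replicate 1, and only Chrna5 had one in replicate 2. Chrnb4 had 2 further regions in its body, 8.55 kb (1.01 and 0.776) and 7.22 kb (0.641 and 0.787) downstream of its start. With the neighbouring gene counted, Chrnb4 thus had the most shared distal regions of the 48 genes, with Chrm3, and no accessible start.

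Among open genes the distal region was at times higher than the promoter region. This was so in both libraries for Htr3a (16.7 kb downstream, 2.25 and 3.02), Htr1b (5.50 kb downstream, 1.98 and 2.65), Chrm3 (3.49 kb upstream of the nearest start and inside the gene, 1.35 and 1.82) and Chrna4 (4.29 kb upstream of the nearest start, 1.08 and 1.09). Chrm3 had 2 more intronic regions, at 0.465 and 0.421 and at 0.767 and 0.688. Htr2a, open in replicate 2 alone at 0.508, had an intronic region 2.69 kb downstream of the start with heights of 1.98 and 3.37 and another 68.4 kb downstream (0.943 and 1.20). In replicate 2 the Htr2a intronic region was higher than every receptor promoter except that of Adra2b, with Adra2a close to it at 3.34. Adra1b had regions at 1.43 and 2.23 and at 1.11 and 1.58, and Chrnb1 a region inside Fgf11 at 1.31 and 2.29. The remaining genes with 1 shared distal region were Adra1a (0.849 and 0.694), Adra2c (0.886 and 1.19), Adrb3 (0.773 and 0.983), Chrm4 (1.66 and 2.13), Chrne (1.13 and 1.85, inside Mink1) and Htr4 (0.603 and 0.721). No region of any kind in the shorter lists was found in the loci of Chrm5, Chrna6, Chrna10, Chrng and Drd5.

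**Figure D5:**
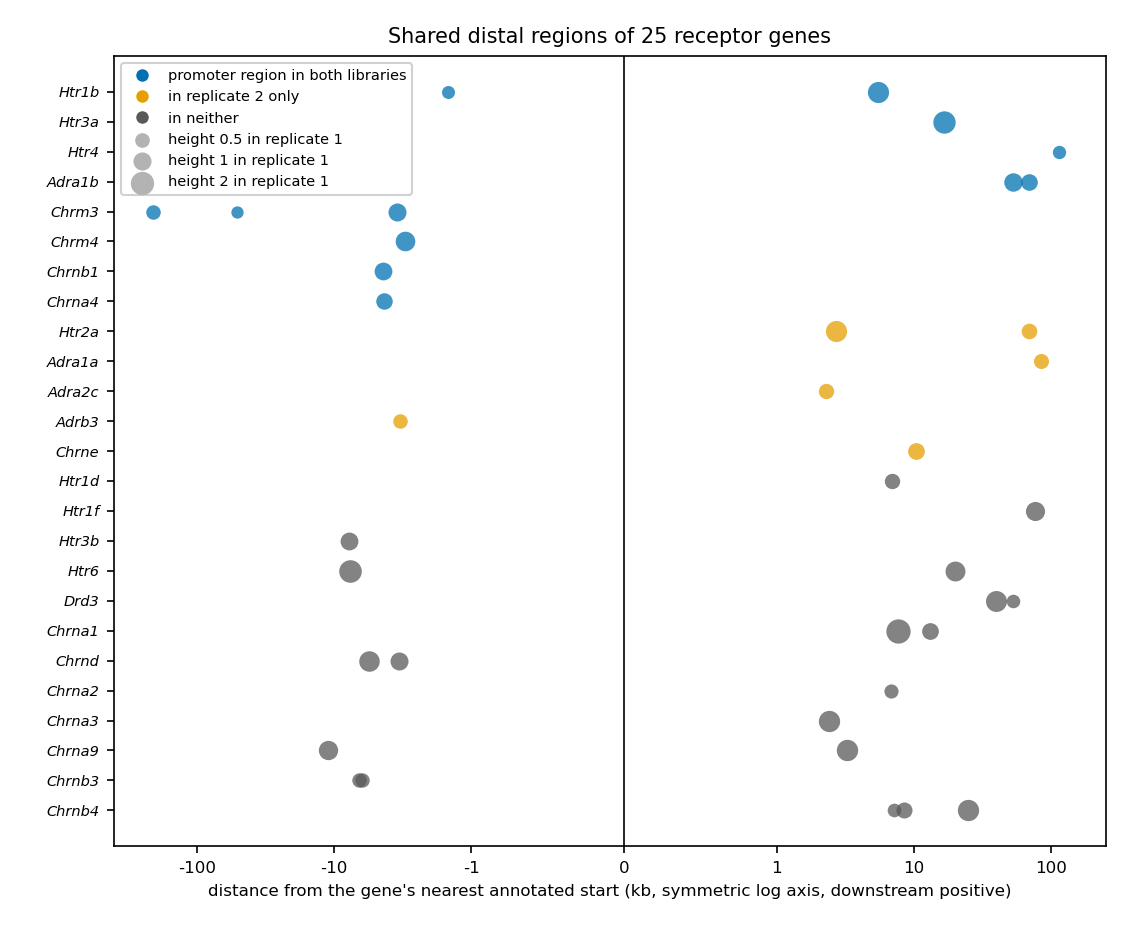
Shared distal regions of the 25 receptor genes that have any, by distance from the nearest annotated start of the gene (horizontal axis, kb, symmetric log axis, downstream positive), with point area growing with the height in replicate 1 and colour giving the state of the promoter. The largest point is the intronic region of Chrna1 (2.70), a gene with no promoter region in either library.

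Some distal receptor regions held the motif of CTCF, the zinc finger protein that organises chromatin loops and insulates genes. An exact match to its 12-base consensus was found in 7 of 37 shared distal receptor regions (18.9%), against 14.5% of all 26224, and in 1 of 34 shared promoter regions, the one inside the coding exon of Chrm4. All 8 matches were fully covered by footprints in both libraries, against 91.2% of the 3818 matches in all shared distal regions and 84.8% of the 415 in all shared promoter regions. The 8 sites are shown with 9 bases on each side, on the strand of the motif and with the match in capitals, because every base of each match was covered in both libraries.
Chrm4: aagaaacctCCACCAGGGGGCgcttctcga
Adra1b: cttggctcaCCACCAGGGGGCactgtgagt
Chrm3: cgcatcaggCCACTAGGTGGCaaagttgac
Chrna2: acataactaCCACTAGATGGCagcaggccc
Chrna3: aggcaatcaCCACCAGGGGGCagcagtaca
Chrna9: cacccatgaCCAGCAGAGGGCagcaggaga
Htr1b: ctgggccgtCCACCAGGGGGCagaatgcct
Htr3a: agattctgtCCACCAGGTGGCagcaaagcc
The matches are at chr2:91928017-91928028 (plus strand) for Chrm4, chr11:43783927-43783938 (plus) for Adra1b, chr13:9882462-9882473 (plus) for Chrm3 and chr14:66147739-66147750 (minus) for Chrna2. Those of Chrna3, which lies in the locus of Chrnb4 too, Chrna9, Htr1b and Htr3a are at chr9:55024107-55024118 (plus), chr5:65938216-65938227 (minus), chr9:81627107-81627118 (minus) and chr9:48894298-48894309 (minus). Adra1b, Chrm3, Chrna2 and Chrna3 hold theirs outside exons of their own bodies, Chrna9 in an exon without coding annotation, and Htr1b and Htr3a outside any gene.

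When 1 letter outside the consensus was allowed, a choice made after the sequences were seen, the motif was found in 20 of 37 shared distal receptor regions (54.1%), against 37.8% of all. In 19 of the 20 (95%) the 12 bases were fully covered by footprints in both libraries, against 82.2% of the 9923 such regions in all. Such matches occurred at 9 of the 12 genes that had a shared distal region and no promoter region, and were not found at Htr6, Drd3 and Htr1f. In this count Chrna3 and Chrnb4 rest on the same region. Such matches occurred at 17 of all 25 receptor genes with a shared distal region. The share over all coding genes with closed promoters was not computed. Among promoter regions, 6 of 34 held such a match (17.6%), against 9.27% of all, and in 4 of the 6 (66.7%) it was fully covered in both libraries, close to the 60.6% of all 1744. These 4 were Adra2a, Adra2b, Chrm4 and Drd1, and the matches not fully covered were at Adra1b and Chrm1. All 6 genes were among the 10 receptor genes with the highest promoter regions by mean rank, so that rank did not set the 4 apart. The intronic regions of Chrna1, Htr2a and Drd3 are shown in full because they lie inside a channel subunit, a serotonin receptor and a dopamine receptor gene that had no promoter region in replicate 1 and were among the highest distal receptor regions. They are printed on the forward strand over the bases common to both libraries, with bases covered by footprints of both in capitals.
Chrna1: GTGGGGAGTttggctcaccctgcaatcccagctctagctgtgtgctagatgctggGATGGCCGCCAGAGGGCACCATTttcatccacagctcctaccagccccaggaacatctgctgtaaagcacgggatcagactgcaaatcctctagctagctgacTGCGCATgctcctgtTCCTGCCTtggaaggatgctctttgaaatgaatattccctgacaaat
Htr2a: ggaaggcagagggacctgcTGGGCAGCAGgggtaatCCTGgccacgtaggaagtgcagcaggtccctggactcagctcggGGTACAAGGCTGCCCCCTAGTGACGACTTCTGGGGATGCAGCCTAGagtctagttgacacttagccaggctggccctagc
Drd3: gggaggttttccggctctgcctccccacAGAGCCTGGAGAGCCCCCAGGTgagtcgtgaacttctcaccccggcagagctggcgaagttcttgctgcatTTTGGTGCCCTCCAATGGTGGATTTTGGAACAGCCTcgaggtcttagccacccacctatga
The Chrna1 region is chr2:73572561-73572780, with 47 of 220 bases in capitals (21.4%), and its gene is on the minus strand. The Htr2a region is chr14:74643461-74643620, with 60 of 160 bases in capitals (37.5%), and the Drd3 region is chr16:43802121-43802280, with 58 of 160 (36.2%), both in genes on the plus strand. The near matches to the CTCF consensus lie at chr2:73572621-73572632 (plus strand) in Chrna1 and at chr14:74643552-74643563 (minus strand) in Htr2a, within capitals in both. No such match was found in the Drd3 region.

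Of the other motifs searched in distal regions, the E-box CAGATGG was found in 4 of 37 shared receptor regions (Adra1b, Chrna4, Chrnb1 and Htr1f), against 12.1% of all. The cyclic AMP response element TGACGTCA was found in 1, the region of Chrna9 at 1.60 and 2.14, against 0.408% of all, with 0 and 3 of its 8 bases in footprints. A consensus match of RFX factors was found in 1, at Chrm3, against 1.05% of all.

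Most genes that act downstream of the receptors were open, and most of those that define presynaptic amine and acetylcholine neurons were not. The lists below include both kinds of genes, and over all of them 43 of 60 (71.7%) were open in both libraries, against 60.5% of all genes. Of 7 genes of transmitter synthesis 2 were open in both, Tph2, the neuronal tryptophan hydroxylase (1.70 and 2.88), and Dbh, which makes noradrenaline (1.01 and 1.23). The genes for tyrosine hydroxylase, Th, and choline acetyltransferase, Chat, were closed in both libraries. Of 7 transporter genes Slc18a1 (5.14 and 7.17) and the choline transporter gene Slc5a7 (0.270 and 0.388) were open in both. For Slc18a1 and the other genes of these lists, starts of neighbouring genes near the regions were not checked. The serotonin transporter gene Slc6a4 was open in replicate 1 alone (1.01). All 3 autosomal genes of degradation were open in both, with Ache, the acetylcholinesterase gene, at 2.97 and 4.43. All 9 G protein α subunit genes were open in both, from Gnal at 0.974 and 1.56 to Gna11 at 7.54 and 9.14. The same held for all 7 genes of receptor kinases and arrestins, for 6 of 9 adenylyl cyclases, 3 of 4 phospholipases C β and 6 of 7 regulators such as Rgs4 (2.24 and 2.22). Of 7 chaperones and modulators of nicotinic receptors 5 were open in both, among them Ric3 (1.58 and 2.19) and Lynx1 (1.24 and 1.38). Beside these 5 of 7, the nicotinic subunit genes were open in both libraries in 4 of 16, and no test was made of this difference.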

How the data were processed

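The 2 DNase-seq libraries of hippocampus, numbered as biological replicates in the labels, made up 1 group. Their donor label is identical, and the sources used here do not say whether they share animals, so their spread describes these samples only. The region lists are narrowPeak files on mm10, derived from each library separately, per the notes deposited with the samples; the sources used here give no caller, version or threshold. The signal heights are values the authors deposited per region, their normalisation is not stated, so a ratio between libraries may include a difference of scale. The deposited false discovery rates per base, adjusted p-values of the authors' own, reach up to 0.05. The deposited footprint p-value is 0.01 in every row, so only positions were used.

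Genes came from GENCODE M21 and sequences from the RefSeq copy of GRCm38. The deposited regions overlap each other in places and were kept as listed. An overlap of 1 bp or more between the libraries made a region shared. A motif was searched in the central 200 bp of shared regions, on both strands. The analysis used Python 3.11.15, pandas 2.3.3, numpy 2.4.6 and pysam 0.24.0, and the region lookup was tested on simulated regions planted at known distances from starts. With 1 group there is no contrast to test, and receptor counts stand beside those of all genes. The receptor genes, gene lists, motifs and the rule for named genes were chosen with earlier results of these data known. The rule takes the 10 highest promoters by mean rank, genes open in exactly 1 library, the 10 genes with most shared distal regions, the highest and lowest of each family, and closed genes with a shared distal region. Values of 1 receptor gene and of 1 pathway gene are not reported here, though both are in the counts. Alternatives covered promoter distance, choice of starts, locus size, overlap, the longer list, stronger regions and each replicate alone.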

Additional observations from a re-analysis of the deposited data

How the results depend on the processing

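The count of 23 receptor genes open in both libraries stayed between 21 and 29 with promoter distances of 500 and 2500 bp, the outermost start alone, the longer list and RefSeq starts, the last chosen after seeing the data. The shares under these settings were 43.8% to 60.4%, against 55.8% to 65.7% of all genes. The count fell to 14 (29.2%, against 52.2% of all genes) with the stronger 50% of regions. Replicate 1 alone gave 23 (47.9%, against 60.8%). Replicate 2 alone gave 31 (64.6%, against 65.3%), close to the share of all genes. With RefSeq starts Chrna9 gained a promoter region (0.603 and 0.612), and Adrb3 and Chrne lost theirs in replicate 2. The 25 genes with a shared distal region became 15 with the gene body alone (31.2%, against 27.1% of all genes) and 38 with 50 kb on each side (79.2%, against 74.7%). The other settings gave 18 to 33 (37.5% to 68.8%, against 31.5% to 58.0% of all genes). Replicate 1 alone gave 27 (56.2%, against 47.4%) and replicate 2 alone 32 (66.7%, against 56.1%). The median height of 1.53 ranged from 1.21 to 1.89, within the SD of 0.415 between the library medians. It was below that of all genes under every alternative run. Replicate 1 alone gave 1.23 over 23 open genes and replicate 2 alone 1.22 over 31, so these 2 medians rest on different sets of genes. The share of promoter regions with a footprint, 85.7% in each library, became 84.3% and 87.5% with distances of 500 and 2500 bp, 86.8% with the outermost start, 76.4% with the longer list and 96.7% with the stronger regions. The cause of these moves was not tested. No paired analysis was possible because the design has only 1 group. With 2 libraries and no read depth given, differences between single genes cannot be tested, and low heights limit what either list can show.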

Other observations

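Some marker genes of cells whose bodies lie outside the hippocampus, and of endothelial and mural cells, had promoter regions. The lists below had shares of 20% to 37.5% open in both libraries, lower than the 60.5% of all genes. Lists of cells of the hippocampus itself ran from 0% for microglia and 12.5% for interneurons to 87.5% for excitatory neurons. Starts of neighbouring genes were not checked for marker genes. Of 8 markers of brainstem monoaminergic neurons, 3 were open in both libraries, namely Tph2 (1.70 and 2.88), Dbh (1.01 and 1.23) and Pitx3 (1.08 and 1.37). Of 6 muscle markers, Ckm (2.02 and 3.21) and Mylpf (2.80 and 3.81) were open in both. Of 5 markers of cholinergic neurons, Slc5a7 alone was open in both, and Chat was closed in both and had 2 shared distal regions in its locus. Of 5 endothelial and mural markers, 3 were open in replicate 1 and 1 in replicate 2, and Kdr alone was open in both (0.786 and 0.606).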
